A study of Homo sapiens with 4 samples.

Results

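The keratins were the genes whose symbol in the deposited files was KRT followed by a number and at most a letter from A to C, which left out the keratin-associated protein genes (KRTAP) and the pseudogenes. This gave 55 of the 20809 rows, with 28 type I keratins, 26 type II keratins and KRT222, which was kept apart. Their RNA levels were compared in 4 libraries, 2 from the drug-resistant subline MDA-MB-468/R (R) and 2 from its parental line MDA-MB-468/WT (WT). MDA-MB-468 is a TNBC cell line of basal type. R was made from it by stepwise exposure to doxorubicin with cyclophosphamide and then to docetaxel, over 6 months according to the sample labels. WT had no drug according to its treatment label, although the protocol text of these samples repeats the drugs. The sources used here do not say whether R grew from 1 clone, nor whether the libraries of a group came from separate cultures, and a p-value here thus reflects only how far these libraries scatter, which may be technical.

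Keratins are the intermediate filament proteins of epithelial cells. A filament is built from pairs of an acidic type I and a basic type II chain, so that a cell needs members of both types, and many keratins have a usual partner. In the breast, KRT8, KRT18, KRT19 and KRT7 are typical of the luminal cells that line the ducts. KRT5, KRT14 and KRT17 are typical of the basal layer of the breast. KRT6A, KRT6B and KRT16 are typical of wounded and rapidly growing epithelium, and a further set, the hair keratins, of the hair shaft and nail. Keratin genes lie in 2 clusters, with type I genes on chromosome 17 and type II genes, together with KRT18, on chromosome 12.

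Values are given as RPM, the reads of a gene scaled to a common library total, and each gene was read from a single short amplicon, so that levels are best compared between libraries and not between genes. The libraries held 6839868 to 7979910 reads, and 3 reads corresponded to 0.376 to 0.439 RPM. The epithelial adhesion gene EPCAM was at 599 to 786 RPM, EGFR at 4770 to 5712 RPM and CDH1 at 78.3 to 105 RPM in the 4 libraries, and these did not pass the test. CDH3, of the same list of breast epithelial genes, was lower in R, with 98.7 and 96.7 RPM in WT and 57.9 and 53.6 RPM in R. Its log2 fold change was -0.8 (limma adjusted p = 0.00422), a call not kept with each library left out in turn. Of the receptors that TNBC lacks, ESR1 and PGR did not exceed 3.23 RPM and ERBB2 was at 6.89 to 13.4 RPM. Of the leukocyte genes, PTPRC and CD3E were at 0 in each library and CD14 was at 70.5 to 84.6 RPM, and the list summed to 85.0 to 85.5 RPM in WT and 70.8 to 71.5 RPM in R. Of 6 fibroblast genes, PDGFRB and DCN were at 0 and COL1A1 was at 10.5 to 17.5 RPM, and the list summed to 17.03 to 18.1 RPM in WT and 11.8 to 13.97 RPM in R. Neither CD14 nor COL1A1 passed the test. Of 4 endothelial genes, VWF was at 0 and CDH5 and KDR were lower in R (limma adjusted p = 0.0034 and 0.0312), beside 10.6% lower among all genes tested. CDH5, with 18 and 22 reads in WT and 0 and 1 in R, was tested only through its reads in WT. Neither call was kept with each library left out in turn. The endothelial list summed to 8.46 to 9.504 RPM in WT and 3 to 3.13 RPM in R. The part of these genes in the keratin differences was not tested. Over all genes tested, the log2 values of both replicates differed with an SD of 0.355 in R and 0.21 in WT.

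Of the 55 keratins, 25 reached 10 reads in 2 or more libraries and were tested with limma among 12118 genes, 20 had no read in any library, and 10 had between 1 and 7 reads in the library where they were highest. At an adjusted p of at most 0.05, 9 of the 25 were lower in R, none was higher and 16 did not pass. Over all genes tested, 10.6% were lower and 5.36% were higher. The lower keratins were KRT34, KRT75, KRT17, KRT80, KRT6A, KRT39, KRT6B, KRT5 and KRT23, in the order of their fold changes. KRT34 and KRT75 also passed the 2.5-fold threshold of the study, which 2.45% of all genes tested passed towards lower and 0.809% towards higher levels. The median log2 fold change was -0.52 over the 25 keratins and -0.03 over all genes tested, and 21 of the 25 lay below 0, with KRT38 turning from -0.015 to 0.01 under RLE scaling, against 53.6% of all genes tested. The 25 had passed a filter on reads that 3 of them, KRT34, KRT75 and KRT13, met through the WT libraries alone, so their place among the 25 rested on their level in WT. In 19 keratins both R libraries lay below both WT libraries and in none above, where 32.2% and 26.1% of all genes tested did so. With 1 library left out, 1 library remained in its group and the scatter was taken from the other group alone. Without either WT library, the calls of the lower keratins other than KRT34 were lost, as were most calls over all genes tested. Without any filter on low values KRT34 was again the only keratin called, and 163 genes in all were lower, against 1290 with the filter.

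**Figure D1:**
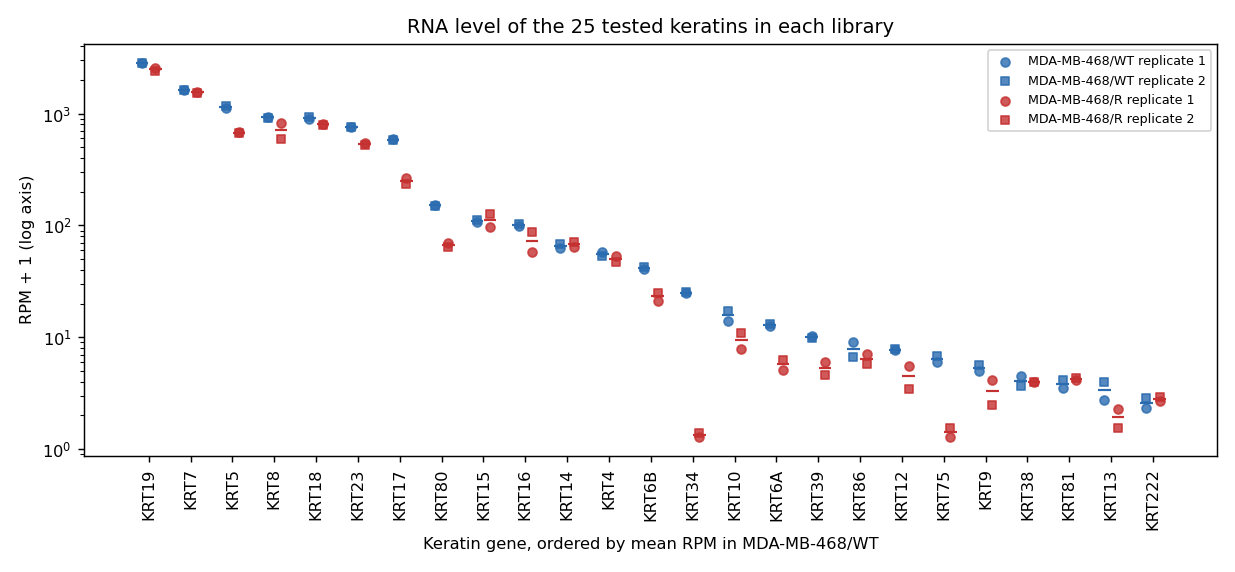
RPM plus 1 on a log axis for the 25 tested keratins, ordered on the x axis by their mean in WT, with circles and squares for the 2 libraries of each group and lines at the group means. KRT34 and KRT75 fall to near 1 on this axis in R, which is below 1 RPM, whereas the points of KRT19 and KRT7 at the left lie close together in both groups.

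The promoter sequences of the lower keratins are shown to set KRT34, whose RNA was nearly lost, beside its chromosomal neighbour KRT33B, which had no read in any library, and beside the other lower keratins with a match. RefSeq promoters (GRCh38.p14) were matched for 34 of the 55 keratins by symbol, among them 4 of the 9 lower ones. No promoter was matched for KRT17, KRT80, KRT6A, KRT6B and KRT23. Each line holds the 250 bases before the start on the minus strand, at chr12:52520395-52520644 for KRT5, chr12:52434372-52434621 for KRT75, chr17:40966949-40967198 for KRT39, chr17:41382307-41382556 for KRT34 and chr17:41369814-41370063 for KRT33B. Capitals mark the TATA box letters TATAAA.
KRT5: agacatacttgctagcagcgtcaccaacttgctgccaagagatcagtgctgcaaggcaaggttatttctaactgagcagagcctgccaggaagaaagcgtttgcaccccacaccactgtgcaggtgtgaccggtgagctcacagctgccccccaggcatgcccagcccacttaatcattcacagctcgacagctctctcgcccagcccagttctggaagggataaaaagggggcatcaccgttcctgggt
KRT75: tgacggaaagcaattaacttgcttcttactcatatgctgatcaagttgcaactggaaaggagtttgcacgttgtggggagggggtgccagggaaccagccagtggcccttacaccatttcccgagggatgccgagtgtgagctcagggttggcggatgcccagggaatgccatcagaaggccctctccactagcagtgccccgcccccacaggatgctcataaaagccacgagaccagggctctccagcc
KRT39: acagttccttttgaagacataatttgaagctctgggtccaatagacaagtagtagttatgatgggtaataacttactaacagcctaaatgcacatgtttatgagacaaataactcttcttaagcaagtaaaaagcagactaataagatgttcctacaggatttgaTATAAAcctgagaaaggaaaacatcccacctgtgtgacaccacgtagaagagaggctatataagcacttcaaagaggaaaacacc
KRT34: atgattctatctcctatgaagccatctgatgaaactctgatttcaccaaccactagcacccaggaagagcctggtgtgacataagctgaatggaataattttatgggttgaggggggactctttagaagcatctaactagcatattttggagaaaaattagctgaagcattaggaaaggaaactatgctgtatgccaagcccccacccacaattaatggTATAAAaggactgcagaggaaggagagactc
KRT33B: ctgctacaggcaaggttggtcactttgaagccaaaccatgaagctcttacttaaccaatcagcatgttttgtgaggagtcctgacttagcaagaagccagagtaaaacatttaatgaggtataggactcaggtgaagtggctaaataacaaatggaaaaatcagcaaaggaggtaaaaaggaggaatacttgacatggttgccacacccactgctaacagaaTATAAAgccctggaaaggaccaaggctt

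KRT34 and KRT33B both carried the letters TATAAA, 31 and 28 bases before the start, and a global alignment of both windows was identical at 55.8% of its positions, gaps included. The same alignment of KRT34 gave 57.3% with KRT31, and 45.5% and 45.4% with KRT75 and KRT5 of the other cluster. KRT39 held the letters TATAAA 85 bases before the start, and KRT5 and KRT75 did not hold them in this window. On either strand, TATAAA was found in 21 of the 34 keratins with a promoter and in 10.7% of 35116 RefSeq promoter windows of the same length. It was in 4 of the 10 tested keratins with a promoter. The AP-1 letters TGANTCA were in none of the 34 (6.57% of all windows), CACGTG was in 1 (6.34%) and CTTTGA, the core of the LEF and TCF factors, in 11 (11.2%). These matches describe letters only.

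The keratins of the luminal cells did not pass the test. KRT19, a type I keratin of ductal epithelium and the member with the highest RPM in both groups, was at 2836 and 2855 RPM in WT and at 2556 and 2418 RPM in R. Its libraries did not overlap between groups, but its log2 fold change of -0.195 had a 95% interval of -0.42 to 0.03 and an adjusted p of 0.209 from limma. KRT7, a type II keratin of simple and glandular epithelia, was at 1617 and 1639.6 RPM in WT and at 1573 and 1540.4 RPM in R. Its log2 fold change was -0.065, with an interval of -0.28 to 0.15 (adjusted p = 0.679). KRT18, the usual type I partner of KRT8, was at 903 and 941 RPM in WT and at 814 and 791 RPM in R. The interval of its log2 fold change ran from -0.41 to 0.01 around -0.2. KRT8 was at 928 and 922 RPM in WT and at 825 and 587 RPM in R. The R libraries of KRT8 lay far apart, and its log2 fold change was -0.41 (limma adjusted p = 0.121). It was -0.655 without R replicate 1 and -0.165 without R replicate 2. That of KRT19 was -0.235 without R replicate 1 and -0.155 without R replicate 2. With 1 R library left, the scatter came from the WT libraries alone, so these fits hold nothing of the spread in R.

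Among the basal keratins, KRT17 and KRT5 were lower and KRT14 did not pass, nor did KRT15, a further partner of KRT5. KRT17, a type I keratin of basal and stressed epithelium, was at 587 and 583 RPM in WT and at 266 and 236 RPM in R. From a mean of 585 RPM ± 2.87 (SD, n = 2) to 251 RPM ± 21.0 (SD, n = 2), it fell by 1.22 on the log2 scale (standard error 0.101, adjusted p = 4.39e-04 from limma). The WT values of KRT17 were deposited as log2 values of 9.2 and 9.19, so that their SD is near the rounding step. KRT5, the type II keratin of the basal layer, was at 1119.6 and 1175 RPM in WT and at 684 and 665 RPM in R, with means of 1147 RPM ± 39.4 and 675 RPM ± 13.2 (SD, n = 2 each). The groups lay well apart. Its log2 fold change was -0.765 (standard error 0.0923, adjusted p = 0.0021). KRT14, the usual partner of KRT5, was at 61.7 and 67.6 RPM in WT and at 62.6 and 70.5 RPM in R, so that the groups overlapped. The interval of its log2 fold change ran from -0.25 to 0.33, whereas that of KRT5 ran from -0.98 to -0.55. The difference between both genes was not tested. KRT15, another type I partner of KRT5, was at 106 and 112 RPM in WT and at 95.3 and 126 RPM in R, again overlapping, with an interval of -0.33 to 0.35. KRT5 and KRT17 did not pass without WT replicate 1 (adjusted p = 0.162 and 0.08) or without WT replicate 2 (0.179 and 0.0786).

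KRT80, KRT23 and the keratins of wounded epithelium came next. KRT80, a type II keratin of differentiating epithelia, was at 151 and 149 RPM in WT and at 69.0 and 62.6 RPM in R. With means of 150.2 RPM ± 1.48 and 65.8 RPM ± 4.58 (SD, n = 2 each), it fell by 1.18 on the log2 scale (standard error 0.109, adjusted p = 6.91e-04). KRT6B, a type II keratin of wounded epithelium, was at 39.5 and 41.5 RPM in WT and at 20.3 and 24.1 RPM in R, and its log2 fold change was -0.845 (adjusted p = 0.00918). KRT6A, its near copy, was at 11.6 and 12.2 RPM in WT and at 4.13 and 5.32 RPM in R, and its log2 fold change was -1.175 (adjusted p = 0.00815). In both KRT6 genes the groups did not overlap. KRT6C, the further copy, had 3 and 7 reads in WT and 1 read per R library, and was just outside the filter on reads, whereas KRT222, with 9 and 15 reads in WT and 12 and 14 in R, was just inside it. Reads of the KRT6 genes may be shared, since 18.2% of the 100-base stretches of the KRT6A transcript, 24.6% of KRT6B and 31.7% of KRT6C were found unaltered in another gene's transcript (GENCODE 29), and the position of the amplicons was not known here. KRT16, the usual type I partner of KRT6A, was at 97.4 and 103 RPM in WT and at 56.3 and 85.8 RPM in R. Its replicates in R lay far apart, and its log2 fold change of -0.52 did not pass (limma adjusted p = 0.109). It was -0.82 without R replicate 2 and -0.22 without R replicate 1, in fits that hold nothing of the spread in R. Of the 100-base stretches of KRT16, 7.18% were found in another transcript. KRT23, a type I keratin first described in pancreatic cancer cells, was at 754 and 759 RPM in WT and at 544 and 522 RPM in R, and its log2 fold change was -0.505 (adjusted p = 0.0111). The call of KRT23 was also lost with no mean trend in limma (adjusted p = 0.0556), and the KRT6A, KRT6B, KRT80 and KRT23 calls were lost with either WT library left out, with adjusted p of up to 0.311.

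**Figure D2:**
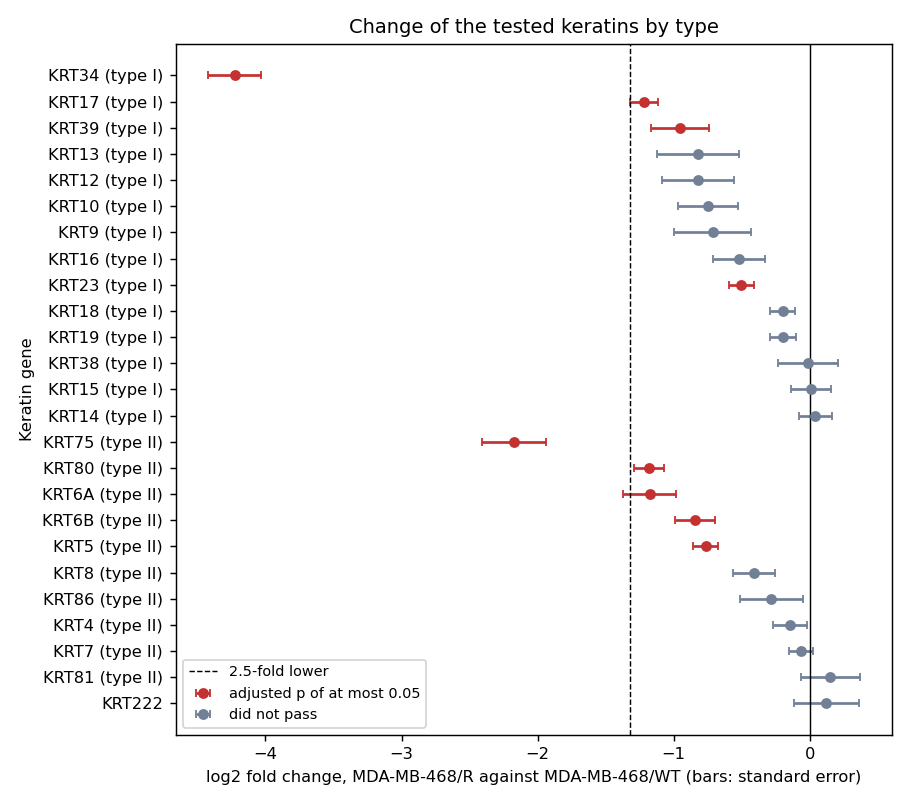
Change from WT to R (x axis, log2 fold) of the 14 type I and 10 type II keratins tested and KRT222 on the y axis, with bars for the standard error from limma. The 9 lower keratins (red) comprise 4 of type I and 5 of type II, and only KRT34 and KRT75 have their points beyond the dashed line of a 2.5-fold decrease.

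KRT34 and KRT75 had the largest decreases of the tested keratins. KRT34, a type I hair keratin, was at 23.8 and 24.5 RPM (163 and 195 reads) in WT and at 0.283 and 0.404 RPM (2 and 3 reads) in R. The ratio of R to WT was 0.0144 from 5 and 358 reads, with an exact 95% counting interval of 0.00466 to 0.0340. On the log2 scale with 1 RPM added, which understates the change of a gene at this level, KRT34 fell by 4.22 (standard error 0.196, adjusted p = 5.47e-05). This call was kept with each library left out in turn, with an adjusted p of up to 0.028. KRT75, a type II keratin of the companion layer of the hair follicle, was at 4.98 and 5.77 RPM (34 and 46 reads) in WT and at 0.283 and 0.548 RPM (2 and 4 reads) in R. Its ratio was 0.0776 from 6 and 80 reads, with a counting interval of 0.0276 to 0.176. The log2 fold change of KRT75 was -2.175 (adjusted p = 0.00126), it came to -1.09 with 4 RPM added in place of 1, and its adjusted p was 0.0558 without WT replicate 1 and 0.0665 without WT replicate 2. KRT39, a type I hair keratin, was at 9.34 and 8.92 RPM in WT and at 4.98 and 3.56 RPM in R, and its log2 fold change was -0.955 (adjusted p = 0.0226). It no longer passed without R replicate 2 (adjusted p = 0.0573), WT replicate 1 (0.292) or WT replicate 2 (0.268).

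The remaining hair keratins with reads did not pass. KRT86, a type II hair keratin, was at 8.06 and 5.63 RPM in WT and at 6.01 and 4.78 RPM in R. KRT81, a hair keratin also known from breast cancer cells, was at 2.48 and 3.14 RPM in WT and at 3.14 and 3.29 RPM in R. The groups overlapped in both genes, whose loci overlap as well, and 30.3% of the 100-base stretches of the KRT81 transcript and 27.95% of KRT86 were found in another gene's transcript. Their reads could not be told apart with certainty. KRT38, a type I hair keratin, was at 3.50 and 2.63 RPM in WT and at 3 RPM in both R libraries. Of the type I hair keratins beside KRT34 on the chromosome, KRT33A had 0 and 7 reads in WT and 1 read per R library, KRT31 had 1 read in all, and KRT33B had none. Of the 100-base stretches of KRT34, 0.847% were found in another gene, KRT33B.

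KRT4, KRT13, KRT10, KRT12, KRT9 and KRT222 did not pass either. KRT4, a type II keratin of the oral and oesophageal lining, was at 56.7 and 52.4 RPM in WT and at 52.1 and 46.5 RPM in R, with an interval of the log2 fold change of -0.44 to 0.15. KRT13, its usual partner, had 12 and 24 reads in WT and 9 and 4 reads in R, and an adjusted p of 0.112. KRT10, a type I keratin of the upper epidermis, was at 13.03 and 16.3 RPM in WT and at 6.84 and 9.93 RPM in R. Its libraries did not overlap and its log2 fold change was -0.75 (adjusted p = 0.0606). KRT1, the usual partner of KRT10, had no read in any library. KRT12, a type I keratin of the cornea, was at 6.73 and 6.78 RPM in WT and at 4.58 and 2.46 RPM in R (limma adjusted p = 0.0776). The log2 fold change of KRT12 was -0.82, and became -1.165 without R replicate 1 and -0.475 without R replicate 2. KRT3, its corneal partner, had 2 reads in each WT library and none in R. KRT9, a type I keratin of the palm and sole, was at 3.96 and 4.62 RPM in WT and at 3.14 and 1.497 RPM in R (adjusted p = 0.134). KRT222 was at 1.31 and 1.89 RPM in WT and at 1.71 and 1.91 RPM in R, and 56.5% of the 100-base stretches of its transcript were also in a neighbouring transcript.

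The keratins at 0 were spread over both types. Of the type I keratins, 10 of 28 had no read in any library, namely KRT20, KRT24, KRT25, KRT26, KRT27, KRT28, KRT32, KRT33B, KRT35 and KRT36, among them the intestinal keratin KRT20, keratins of the inner root sheath of the hair and hair keratins. Of the type II keratins, 10 of 26 had none, namely KRT1, KRT2, KRT71, KRT73, KRT76, KRT77, KRT82, KRT83, KRT84 and KRT85, among them the epidermal keratins KRT1 and KRT2, keratins of the inner root sheath and hair keratins. A count of 0 allows up to 0.376 to 0.439 RPM in these libraries and covers counting error only, since amplified reads are not independent molecules. Of the 10 keratins with some reads that were not tested, KRT40 had 1 and 4 reads in WT and none in R, and KRT79, with 0 and 2 reads in WT and 1 and 2 in R, was the type II member with reads in both groups beside KRT6C. KRT37, KRT72, KRT74 and KRT78 had a single read each.

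As sums, both type I and type II keratins were lower in R. The summed RPM of all keratins was 9348 and 9499 in WT, or 0.942% of the library on average, and 7656 and 7213 in R, or 0.743%. The log2 ratio of the sums was -0.34 for all keratins, -0.33 for type I and -0.36 for type II, and for each sum both R libraries lay below both WT libraries. The type I share of the sum was 57.8% in both WT libraries and 57.7% and 59.2% in R. The difference between groups was 0.645 percentage points, and turned to -0.114 without R replicate 2. KRT7, KRT8, KRT18 and KRT19 made up 67.2% and 66.9% of the keratin RPM in WT and 75.3% and 74.0% in R. Without KRT19 and KRT7, the members that added the most RPM to each sum, the log2 ratio of the sum was -0.545. Sums over amplicons of unequal yield are given as a description, with no test.

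**Figure D3:**
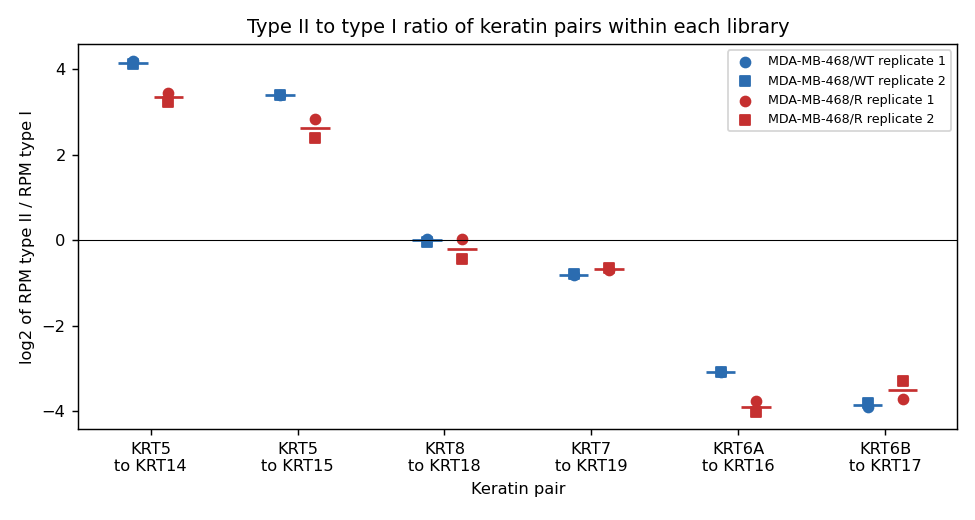
Log2 of the RPM of a type II keratin over the RPM of a type I partner in each library (y axis) for 6 pairs (x axis), with circles and squares for the 2 libraries of each group and lines at the means. The KRT5 to KRT14, KRT5 to KRT15 and KRT6A to KRT16 ratios lie lower in both R libraries, and the KRT8 to KRT18 ratio overlaps between groups.

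Within pairs of partners, KRT5 was lower relative to its type I partners. The log2 ratio of KRT5 to KRT14 was 4.18 and 4.12 in WT and 3.45 and 3.24 in R, a difference of -0.81. The ratio of KRT5 to KRT15 was 3.40 and 3.39 in WT and 2.84 and 2.40 in R. For KRT6A to KRT16 it was -3.08 in both WT libraries and -3.77 and -4.01 in R, a difference of -0.81. In each of these 3 pairs both R libraries were below both WT libraries. Among single genes tested, 32.2% lay so and 26.1% the other way, and the share among ratios was not computed. The log2 fold changes of KRT14 and KRT15 were 0.04 and 0.01, so that both KRT5 ratios largely repeat the -0.765 of KRT5. The ratio of KRT6B to KRT17 was higher in R, by 0.35, and that of KRT7 to KRT19 by 0.13, with no overlap. For KRT8 to KRT18, the groups overlapped, with 0.04 and -0.03 in WT and 0.02 and -0.43 in R. These ratios are given as a description, with no test, and only their difference between groups, not their size, is free of the amplicon's yield.

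**Figure D4:**
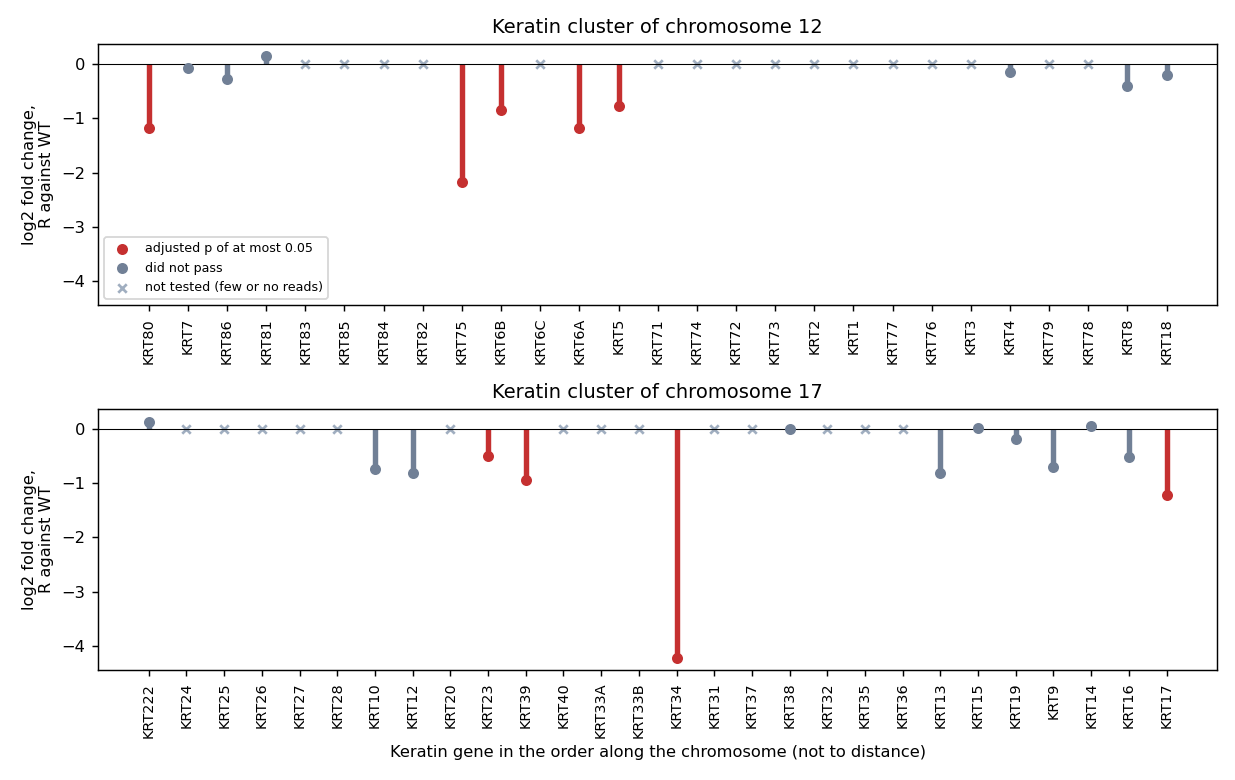
Change from WT to R (y axis, log2 fold) of the keratins in their order along chromosomes 12 and 17 (x axis, not to distance), with red for an adjusted p of at most 0.05, grey for tested genes that did not pass and crosses at 0 for genes that were not tested. KRT75, KRT6B, KRT6A and KRT5 are lower and lie next to each other on chromosome 12 with KRT6C, not tested, between them.

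Along chromosome 12, the lower type II keratins KRT75, KRT6B, KRT6A and KRT5 were neighbours, with KRT6C among them, whereas KRT80 lay at one end of the cluster. At the other end, KRT8 and KRT18 did not pass. The 5 lower members of this cluster were among 11 tested of 27. Along chromosome 17, the 4 lower members among 14 tested of 28 were KRT23 and KRT39, which are neighbours, KRT34, and KRT17 at the end of the cluster next to KRT16 and KRT14, which did not pass. Of the 10 nearest tested genes on each side of the chromosome 12 cluster, 3 were higher and none was lower, and their medians of the log2 fold change were 0.24 and 0.09. Of those around the chromosome 17 cluster, 1 was higher and none was lower, with medians of 0.15 and -0.13. Beside these counts for the clusters and their surroundings stand the 10.6% lower and 5.36% higher among all genes tested. The counts are small, and a difference between the clusters and their surroundings was not tested.

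The keratin-associated protein genes, whose products surround hair keratins in the hair shaft, were mostly without reads. Of 84 in the files, 55 had no read and 3 were tested, of which KRTAP2-3 and KRTAP5-1 were lower. KRTAP5-1 had 18 and 25 reads in WT and 9 and 6 in R, so that it met the filter on reads through WT alone. Its log2 fold change was -0.93 (limma adjusted p = 0.0402), and this call was lost with any library left out. KRTAP2-3, which lies between KRT40 and KRT33A on chromosome 17, was at 17.9 and 17.1 RPM in WT and at 1.57 and 1.497 RPM in R, and its log2 fold change was -2.87 (adjusted p = 1.75e-04). It passed with each library left out in turn, with an adjusted p of up to 0.0432. Members of this family are near copies of each other, and reads may be shared. Of 8 tested genes of epidermal differentiation, 5 were lower and none was higher, with a median log2 fold change of -0.89, where 10.6% of all genes tested were lower and 5.36% higher. Of the 5, SPRR3 (21 and 32 reads in WT, 2 and 1 in R) and KLK7 (51 and 46 in WT, 4 and 13 in R) did not meet the filter on reads through R alone. Their place among the 8 thus rested on their level in WT. IVL, the cornified envelope protein involucrin, was at 33.5 and 35.5 RPM in WT and at 5.73 and 4.24 RPM in R, and its log2 fold change was -2.58 (adjusted p = 2.49e-04). The epidermal protease genes CASP14 and KLK7 had log2 fold changes of -0.885 and -1.86, and the calcium-binding protein gene CALML5 had -0.89. The IVL, CASP14, KLK7 and CALML5 calls were lost without at least 1 WT library, with adjusted p of up to 0.221.

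The genes called linkers here were for proteins that tie keratins to the cell border or are linked to keratin filaments in other ways. Of 13 tested, 1 was lower and 2 were higher, with a median log2 fold change of -0.1. With so few genes these counts lie near the 10.6% and 5.36% of all genes tested. DSP, the desmosome protein desmoplakin that anchors keratin filaments, was at 764 and 770 RPM in WT and at 733 and 728 RPM in R and did not pass (adjusted p = 0.649). PKP2, a desmosomal plaque protein, was lower, and its log2 fold change was -0.855 (adjusted p = 0.0087). PKP4, a junctional plaque protein, and FAM83H, which recruits a kinase to keratin filaments, were higher, with 0.54 and 0.95 (adjusted p = 0.021 and 0.0046). These 3 calls were lost when a WT library was left out, with adjusted p of up to 0.338, and the number of lower linkers was 4 without R replicate 2 and 3 without R replicate 1.

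Among 9 tested intermediate filament genes that are not keratins, 2 were lower and 1 was higher, with a median log2 fold change of -0.135, beside 10.6% lower and 5.36% higher among all genes tested. VIM, the mesenchymal filament protein vimentin, changed by -4.17 on the log2 scale (adjusted p = 4.73e-05), and LMNA, a nuclear lamin, had -0.625 (adjusted p = 0.0139). The neurofilament gene NEFH was higher, from 14.03 and 12.2 RPM in WT to 40.4 and 35.3 RPM in R (a log2 difference of 1.46, adjusted p = 0.00123). Of 13 tested epithelial regulators of keratin genes, ELF3, SOX15 and KLF5 were lower, with log2 fold changes of -0.985, -1.185 and -0.42, and GRHL3 and OVOL1 were higher, with 0.97 and 0.93, and the median was -0.14. These counts too stand beside 10.6% and 5.36% of all genes tested. TP63, the regulator of the basal layer, had no read in any library. Of 4 tested hair follicle regulators none passed, and HOXC13, an activator of hair keratin genes, was at 13.3 and 15.4 RPM in WT and at 13.4 and 9.41 RPM in R (adjusted p = 0.333). Of these filament and regulator genes, VIM alone passed with either WT library left out.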

How the data were processed

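RNA of the MDA-MB-468 pair was measured with the Ion AmpliSeq Transcriptome kit. Alignment was by the Torrent Mapping Alignment Program according to the study's methods. Bowtie2, bedtools and edgeR also appear in the notes of the submitters, without versions, and no genome build is given in the sources used here. The authors deposited log2 values, which were log2 of RPM plus 1 (sums of 999854 to 1000060 RPM per library). These values were rounded to 2 decimals, so that small SDs of RPM partly hold rounding. Reads were recovered from the size of 1 read, and 100% of the values of up to 20 reads were whole within 0.1. The test, on the deposited log2 values, was that of limma (version 3.58.1, R 4.3.3), with group as the only term, empirical Bayes with a mean trend and Benjamini-Hochberg adjustment over the 12118 genes with at least 10 reads in at least 2 libraries, and was checked on simulated data. DEGSeq, which the study used, was not run. Intervals of log2 fold changes use limma's 7.40 degrees of freedom. The members and the lists of partner genes were chosen with earlier results of these data known. All tested keratins were named, and of each partner list up to 4 passing members with the largest change and at least 5 RPM. DSP, HOXC13, TP63, OVOL1, KLK5 and KRTAP5-1 were added after their values were seen. The promoter motifs and keratin pairs were no part of the planned tests. Gene order follows RefSeq (GRCh38.p14), and the files name no build. The alternatives were another pseudocount, other filters, RLE scaling, limma-voom on the recovered reads (1333 genes lower, 659 higher), no mean trend, a replicate block and each library left out.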

Additional observations from a re-analysis of the deposited data

How the results depend on the processing

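The 9 lower keratins kept their direction under each of the 11 alternatives, and KRT34 also its call, with log2 fold changes from -5.87 with limma-voom to -2.69 with 4 RPM added in place of 1. The number of lower keratins was 8 to 10 with 4 RPM, RLE scaling, a filter of 30 reads, limma-voom, no mean trend or the replicate block, and 1 with no filter on low values. It ranged from 1 to 12 with 1 library left out. The keratins past the fold threshold numbered 1 with 4 RPM and 1 with no filter, and 1 to 3 with 1 library left out. No keratin was called higher under any alternative.

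With no filter, 163 genes were lower and 112 higher (82 and 22 past the fold threshold), and of the linkers 0 and 0, of other filaments 1 lower, of epidermal genes 0 lower, of epithelial regulators 0 lower and 0 higher and of KRTAP genes 1 lower. With 4 RPM, 140 genes were lower and 51 higher past the fold threshold and 2 linkers were lower. With limma-voom 158 genes were higher past the fold threshold, 2 linkers were lower and 1 epithelial regulator was higher. With 30 reads 1 KRTAP gene was lower and 1 epithelial regulator higher, and with no mean trend 1 filament gene was lower and 1 regulator higher. With 1 library left out, all genes lower ranged from 48 to 1305 and higher from 9 to 751, past the fold threshold from 48 to 307 and from 9 to 90. Lower linkers ranged from 0 to 4 and higher ones from 0 to 2, lower filament genes from 1 to 2 and higher ones from 0 to 2, lower epidermal genes from 0 to 5 and higher ones from 0 to 1, lower regulators from 0 to 3 and higher ones from 0 to 2, lower KRTAP genes from 1 to 1 and higher hair regulators from 0 to 1. The causes of these differences were not tested, and the number of libraries was the same with an R or a WT library left out.

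The log2 ratio of the type I sum was -0.29 with RLE scaling. Without the keratin that added the most RPM to the sum of each type the ratios were -0.545 for all, -0.486 for type I and -0.614 for type II, and the type I share differed by 2.29 percentage points. With 1 library left out, that difference ranged from -0.114 to 1.40. Libraries of the same replicate number showed no shared deviation from their group means (correlation of deviations 0.00868). This value cannot tell whether they were prepared or run together. With the replicate block 10 keratins were lower, KRT10 in addition (limma adjusted p = 0.0379), with 1 KRTAP gene lower and 1 epithelial regulator higher. Depth limits what can be said of keratins under 10 reads.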

Other observations

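The files also hold 6 keratin pseudogenes. KRT16P3 had 3 and 0 reads in MDA-MB-468/WT and 4 and 5 reads in MDA-MB-468/R, KRT16P2 had 2 and 3 and then 2 and 1 reads, KRT42P had 2 and 1 and then 1 and 1, KRT19P2 had 1 read in all, and KRT18P55 and KRT8P41 had none. Of the 100-base stretches of the KRT14 and KRT16 transcripts, 5.95% and 7.18% were found in another transcript, namely in each other's and in KRT16 pseudogene transcripts.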
